A study of Homo sapiens with 8 samples.

Results

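The glycine tRNAs carry glycine to the ribosome, and in human cells they come as the isoacceptors tRNA-Gly-GCC, tRNA-Gly-CCC and tRNA-Gly-TCC, which differ in the anticodon that reads the glycine codons. All peaks whose reference name holds tRNA-Gly- were taken, whatever their values, and grouped by anticodon and by reference, a reference being a distinct mature sequence that stands for all gene copies coding for it. This gave 62 peaks of 924 on cytosolic tRNAs and of 4746 in the whole series. They lay on 9 references of 156, with 4 for GCC, 2 for CCC and 3 for TCC, and none lay on the antisense strand.

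The libraries came from HEK-293, a line of embryonic kidney origin, either wild type (WT) or knocked out for ALKBH1 (KO), and each line gave input and IP libraries in 2 replicates, so 8 libraries in 4 groups. Per the study's methods, knockout lines were grown from sorted single cells of HEK293T, so WT and KO may differ by more than ALKBH1. In both lines, input included, fragmented total RNA received an oligonucleotide carrying 5-formylcytidine (f5C) and was treated with the aldehyde-reactive probe (ARP), which couples biotin to aldehydes, and the IP was the part bound by streptavidin. A peak's value was its cDNA count, the number of distinct molecules in it. Peak counts summed to between 48380 and 285539 per library, with all IPs below all inputs, and the lowest listed count of 10 was worth between 35.0 and 207 CPM, the scale on which the sum of each library is made equal. Replicates differed by more than counting error, and only the spread between these 2 samples per group stands behind each test, since no source used here says that they were separate cultures beyond naming them biological replicates.

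ALKBH1 is a dioxygenase that oxidises 5-methylcytidine (m5C) and makes f5C at the wobble base, the first base of the anticodon, of mitochondrial tRNA-Met and cytosolic tRNA-Leu-CAA. The aldehyde of f5C is what ARP binds. tRNA-Gly-CCC has a cytosine at the wobble base, tRNA-Gly-GCC and tRNA-Gly-TCC do not. tRNA-Gly-GCC is also a known m5C carrier, methylated by TRDMT1 on the 3′ side of its anticodon loop and by NSUN2 near its variable loop. The comparison of IP with input asks which RNAs the probe retained, and that of WT with KO asks which of these need ALKBH1.

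The peak lists named 25 gene copies for the 9 references, and RefSeq (GRCh38) held all 25 with identical sequence among the copies of a reference, out of 30 glycine tRNA genes. The copies lay on 7 chromosomes, 14 of them on chromosome 1 and 11 of those in a tRNA gene cluster at chr1:161443304-161531184. The main references are shown because the results turn on where they differ from each other. They are given as the genomic sense strand from the 5′ end, with the anticodon in capitals.
GCC-1, TRG-GCC1-1 at chr1:161443304-161443374 on the plus strand, 5 copies: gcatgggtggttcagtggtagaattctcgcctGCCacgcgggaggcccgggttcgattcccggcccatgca
GCC-2, TRG-GCC2-1 at chr1:161523847-161523917 on the minus strand, 6 copies: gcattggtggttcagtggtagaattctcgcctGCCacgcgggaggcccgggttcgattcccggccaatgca
CCC-1, TRG-CCC1-1 at chr1:16545939-16546009 on the minus strand, 2 copies: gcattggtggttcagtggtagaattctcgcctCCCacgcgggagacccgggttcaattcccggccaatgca
CCC-2, TRG-CCC2-1 at chr2:70248991-70249061 on the minus strand, 2 copies: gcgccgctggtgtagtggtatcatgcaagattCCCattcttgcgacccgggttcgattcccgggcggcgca
TCC-2, TRG-TCC2-1 at chr1:146037061-146037132 on the plus strand, 6 copies: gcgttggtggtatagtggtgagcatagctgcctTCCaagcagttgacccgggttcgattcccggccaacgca

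Each of these positions is the annotated tRNA gene itself. GCC-1 and GCC-2 differ by G5T and C66A, counted from the first base of the gene with the GCC-1 base first. CCC-1 shares 68 of 71 bases with GCC-2, but only 48 of 71 with CCC-2, the other reference of its own anticodon. The 3 TCC references differ from each other only at position 20. The fourth base after the wobble base, at position 37, is C in all GCC references and in CCC-1 and T in CCC-2, and it is A in the TCC references, where it is position 38.

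GCC was the most counted isoacceptor in every library, and all 3 isoacceptors were lower in every IP than in every input. tRNA-Gly-GCC had 2986 and 3028 cDNA counts in WT input, 717 and 585 in WT IP, 4843 and 6374 in KO input and 679 and 653 in KO IP. In CPM this was 31290 ± 569 (SD, n = 2, as for all CPM values here) in WT input, 11526 ± 799 in WT IP, 23612 ± 1823 in KO input and 12618 ± 131 in KO IP, so the IPs of both lines lay below both sets of inputs without overlap.

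tRNA-Gly-CCC had 1284 and 1171 counts in WT input, 287 and 208 in WT IP, 3043 and 3748 in KO input and 301 and 316 in KO IP. Its CPM was 12787 ± 1190, 4343 ± 62.4, 14386 ± 1782 and 5848 ± 301 in the same order. The inputs of the lines overlapped, and the KO IPs lay above the WT IPs.

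tRNA-Gly-TCC had 680 and 692 counts in WT input, 206 and 110 in WT IP, 1240 and 1827 in KO input and 174 and 155 in KO IP. Its CPM was 7138 ± 112, 2711 ± 619, 6387 ± 16.2 and 3115 ± 201. WT IP replicate 2, the library with the lowest peak total, was the lowest of the 8 for TCC.

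**Figure D1:**
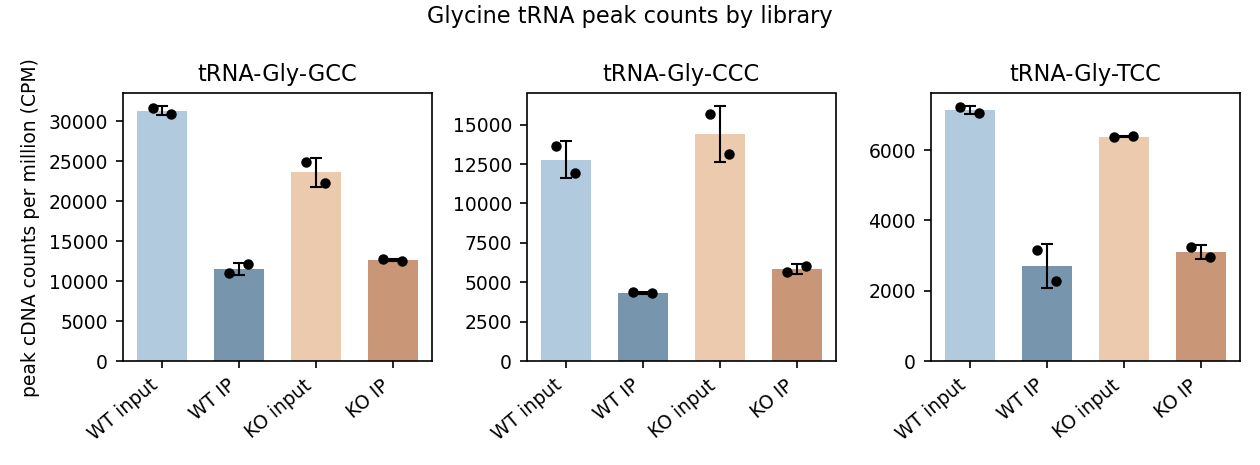
Peak cDNA counts in CPM (vertical axis, linear, from 0) for the 3 glycine isoacceptors in the 4 groups. Points are the 2 libraries of a group, bars their mean and error bars the SD; for each isoacceptor all 4 IP libraries lie below all 4 inputs.

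Within the isoacceptors, GCC-1 led in every library. In the WT inputs it stood at 20372 ± 218 CPM, followed by GCC-2 at 10407 ± 307 and CCC-2 at 9509 ± 421. In the KO inputs GCC-1 was at 13133 ± 951, CCC-2 at 11177 ± 998 and GCC-2 at 10313 ± 816. CCC-2 had more counts than GCC-2 in each KO input, 2311 against 2118 and 2990 against 2780, a difference that was not tested. TCC-2 and CCC-1 came next in the inputs, with 4260 ± 5.53 and 3277 ± 769 CPM in WT and 3205 ± 5.21 and 3209 ± 784 in KO, an order that their spread does not settle in KO. TCC-1 and TCC-3 followed, between 1374 and 1740 CPM on average in the inputs. All references are 71 or 72 nt long, but the peaks on the TCC references covered a different stretch (below 20 nt) from those on GCC and CCC, so the order between these is one of listed counts.

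GCC-3 and GCC-4, each with 1 gene copy, were the rare references. GCC-3 was listed only in the inputs, with 51 and 34 counts in WT and 40 and 21 in KO. GCC-4 was listed only in replicate 2 of the WT input with 13 counts and of the KO input with 15. In the IPs neither had a listed peak, where the lowest listed count of 10 was worth 153 and 207 CPM in WT and 187 and 192 CPM in KO. GCC-3 stood at 541 and 347 CPM in the WT inputs, above these limits, and no peak of that level was listed in the WT IPs. Its WT input peaks spanned positions 2 to 13 and 2 to 56, and counts outside called peaks are not listed. In the KO inputs it stood at 206 and 73.5 CPM and GCC-4 at no more than 133 CPM in any input, where the limits of the IPs do not show a decrease. The fits of rows with a peak in every compared library held GCC-4 in no comparison. They held GCC-3 only between the inputs, where WT over KO was 1.73 on the log2 scale (SE 0.60, edgeR adjusted p = 0.0800).

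In WT cells the pulldown lowered all 3 isoacceptors. The log2 fold change of WT IP over WT input was −1.46 for tRNA-Gly-GCC (SE 0.14, edgeR quasi-likelihood test, adjusted p = 0.000354), −1.57 for tRNA-Gly-CCC (SE 0.15, edgeR adjusted p = 0.000345) and −1.41 for tRNA-Gly-TCC (SE 0.20, edgeR adjusted p = 0.00163). Of all 189 rows of this fit, 25.9% were called lower. In the fit of single regions, all 7 references with a peak in every compared library fell, against 25.1% of 243 regions called lower, while GCC-3 and GCC-4 had no peak in the IPs and were not tested. CCC-1 at −2.28 (SE 0.35) and GCC-2 at −2.03 (SE 0.11) had the steepest values, followed by TCC-2 at −1.71 (SE 0.19) and CCC-2 at −1.45 (SE 0.13). GCC-1 at −1.26 (SE 0.12), TCC-3 at −1.26 (SE 0.21) and TCC-1 at −1.03 (SE 0.25) had the shallowest. The calls of the rarer references TCC-1 and TCC-3 were the least firm: with DESeq2 they were at −0.90 (adjusted p = 0.195) and −1.12 (adjusted p = 0.0751), and TCC-1 also lost its call with uncalled regions set to 0 (edgeR adjusted p = 0.0696) and with a mean count of at least 50 (−0.74, edgeR adjusted p = 0.0851), so it passed in 6 of 12 alternatives. Both were lost without WT input replicate 1, WT input replicate 2 or WT IP replicate 2. Without WT IP replicate 2, TCC-1 was at −0.56 and TCC-3 at −0.88.

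In KO cells all 3 isoacceptors were again lower in the IP. The log2 fold changes of KO IP over KO input were −1.10 for tRNA-Gly-GCC (SE 0.14, edgeR adjusted p = 0.000451), −1.49 for tRNA-Gly-CCC (SE 0.17, edgeR adjusted p = 0.000315) and −1.22 for tRNA-Gly-TCC (SE 0.16, edgeR adjusted p = 0.000496). Of 193 rows, 31.6% were called lower. The same 7 references fell, against 30.9% of 246 regions called lower. The range ran from −0.65 (SE 0.14) for GCC-1 to −2.51 (SE 0.29) for CCC-1. GCC-1 lost its call without KO IP replicate 1 (−0.54, edgeR adjusted p = 0.0567), and TCC-3 with DESeq2 (adjusted p = 0.130).

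**Figure D2:**
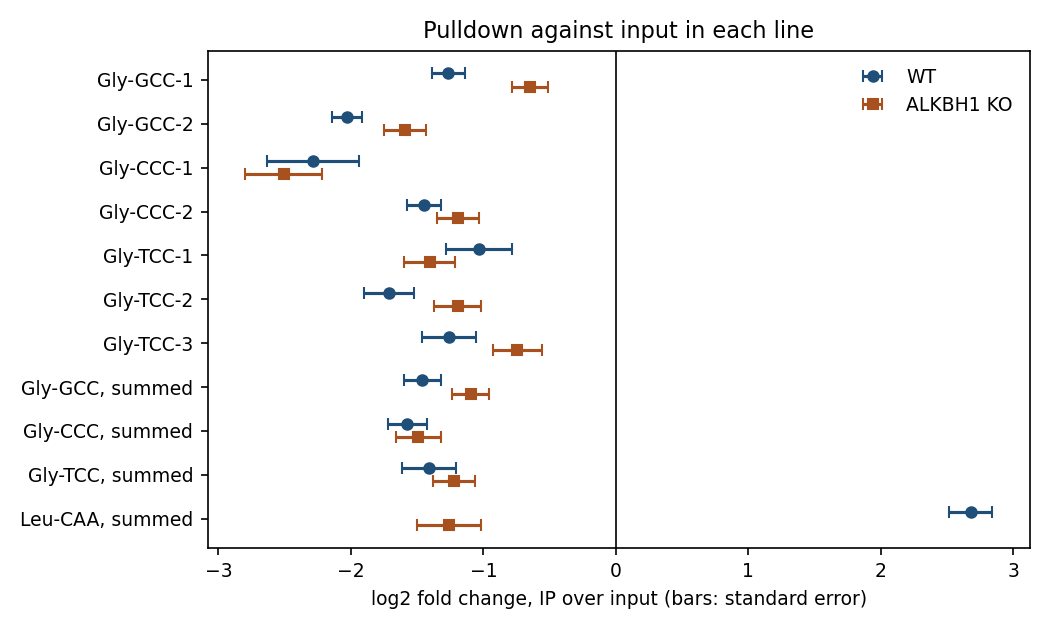
Log2 fold change of IP over input (horizontal axis, edgeR, bars show the standard error) for the 7 tested glycine references, the 3 isoacceptor sums and tRNA-Leu-CAA, a known f5C carrier, in WT (circles) and ALKBH1 KO (squares). Every glycine value lies below 0 in both lines, from −0.65 to −2.51, while Leu-CAA is at 2.68 in WT and −1.26 in KO.

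The known f5C carriers give the scale of a retained RNA in the same libraries. tRNA-Leu-CAA rose in WT IP by 2.68 on the log2 scale (SE 0.16, edgeR adjusted p = 8.36e-05) and fell in KO IP (−1.26, SE 0.24, edgeR adjusted p = 0.00347). The mitochondrial tRNA-Met region rose in WT IP by 3.62 (SE 0.19, edgeR adjusted p = 8.36e-05) and was at −0.09 (SE 0.13) in KO. Peak counts are shares of a library, so a gain of such RNAs lowers the others, and a lower share cannot be told apart from less RNA retained.

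Among the cytosolic anticodons tested in WT, glycine took places 3 (CCC), 4 (GCC) and 5 (TCC) of 38 counted from the lowest fold change, where the median was −0.18 and the initiator tRNA iMet-CAT was lowest at −3.20. In KO they took places 4 (CCC), 8 (TCC) and 10 (GCC) of 39, with a median of −0.23. Of all cytosolic anticodons, 31.6% were called lower in WT and 38.5% in KO. Together the glycine tRNAs made up 15.8% and 14.1% of cytosolic tRNA peak counts in WT input, 5.68% and 5.19% in WT IP, 16.8% and 15.4% in KO input and 6.58% and 6.30% in KO IP. The mean was 5.94% over the IPs and 15.5% over the inputs, with no overlap (exact permutation test, two-sided, p = 0.0286, the smallest that 4 against 4 libraries allow; 0.0762 after adjustment over 8 tests of shares, so not past 0.05). With input and IP of a replicate number taken as a pair, the exact sign-flip permutation p was 0.125, the smallest that 4 pairs allow.

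Between the IPs of the lines no glycine difference passed the test. WT IP over KO IP was 0.19 for tRNA-Gly-GCC (95% interval −0.10 to 0.48), −0.11 for tRNA-Gly-CCC (−0.44 to 0.22) and 0.12 for tRNA-Gly-TCC (−0.42 to 0.66) on the log2 scale, and none passed, where 41.5% of 171 rows did. By edgeR 0 of 7 references passed the threshold and 0 had an unadjusted p under 0.05, against 37.3% of 220 regions called. By DESeq2 0 of 7 passed as well. Among the alternatives of scaling, filter and left-out libraries, tRNA-Gly-GCC and GCC-1 passed with a mean count of at least 50 (0.37 and 0.38), and CCC-2 passed when library sizes were the peak totals (−0.53, edgeR adjusted p = 0.0396).

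The interaction asks whether the change from input to IP differed between the lines, and it is the WT change minus the KO change in a fit of all 8 libraries. It was 0.02 for tRNA-Gly-GCC (95% interval −0.44 to 0.48, edgeR adjusted p = 0.943), 0.30 for tRNA-Gly-CCC (−0.19 to 0.79, edgeR adjusted p = 0.332) and 0.19 for tRNA-Gly-TCC (−0.35 to 0.72, edgeR adjusted p = 0.581). These intervals lie far below the 4.32 of tRNA-Leu-CAA. By edgeR 0 of 7 references passed and 0 had an unadjusted p under 0.05, against 30.1% of 186 regions and 26.8% of the 138 rows with anticodon sums. By DESeq2 1 of 7 passed, GCC-1 (−0.44, adjusted p = 0.0462).

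The sign of this interaction depended on the scaling. The median over all rows of the fit was 0.19 with TMM factors and −0.35 with peak totals as library sizes, and over the cytosolic anticodons it was 0.33 with TMM, above all 3 glycine values. With peak totals tRNA-Gly-GCC was at −0.54 (edgeR adjusted p = 0.0134), that is, a steeper fall in WT, while the values for CCC and TCC, −0.26 and −0.35, did not pass. For GCC-1 alone the interaction was −0.27 (SE 0.17, edgeR adjusted p = 0.270) and passed under 6 of 15 alternatives, the strongest with peak totals (−0.65, edgeR adjusted p = 0.00946), and it was negative under all 15. When the 4 groups shared 1 fit, tRNA-Gly-GCC was at −1.04 in WT and −1.06 in KO, where the separate fits above give −1.46 and −1.10.

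In the inputs, 1 isoacceptor differed between the lines. tRNA-Gly-GCC was higher in WT input than in KO input by 0.51 on the log2 scale (SE 0.11, edgeR adjusted p = 0.0384), where 12.3% of 332 rows were called higher, while tRNA-Gly-CCC (−0.07, SE 0.15) and tRNA-Gly-TCC (0.27, SE 0.08, edgeR adjusted p = 0.0638) did not pass. Of 8 references tested 2 were higher in WT, GCC-1 by 0.67 (SE 0.12, edgeR adjusted p = 0.0248) and TCC-2 by 0.45 (SE 0.10, edgeR adjusted p = 0.0392), against 15.5% of 400 regions called higher. GCC-2, at 0.05 (SE 0.13), was not called. The call for tRNA-Gly-GCC held under 7 of 13 alternatives; it was lost in the fit of all 4 groups (0.16, edgeR adjusted p = 0.387), with the cytosolic tRNA rows alone (0.20), with uncalled regions set to 10 (0.47, edgeR adjusted p = 0.0603), and without WT input replicate 1, WT input replicate 2 or KO input replicate 1. In that fit of all 4 groups tRNA-Gly-CCC and CCC-2 were called lower in WT input instead (−0.43, edgeR adjusted p = 0.0444, and −0.39, edgeR adjusted p = 0.0486), and TCC-2 was not called (0.25, edgeR adjusted p = 0.300), while GCC-1 was. The edgeR fits that left out any of these 3 libraries called 0 of all rows at the level of anticodons, in either direction. The call for GCC-1 was lost without WT input replicate 2 or either KO input replicate, with values between 0.55 and 0.70 over the 4 fits, and that for TCC-2 without any 1 of the 4 inputs (0.40 to 0.46).

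The share of each isoacceptor in the glycine counts was compared between the lines, and no difference passed the test. GCC was 60.3% and 61.9% of glycine counts in WT input and 59.3% and 64.8% in WT IP, against 53.1% and 53.3% in KO input and 58.8% and 58.1% in KO IP. The means were 61.6% over the WT libraries and 55.8% over the KO libraries, and every WT library lay above every KO library (exact permutation test over libraries, two-sided, p = 0.0286, adjusted over 8 tests 0.0762). CCC took the opposite order, with 24.2% in WT and 29.7% in KO (exact permutation test, p = 0.0286, adjusted 0.0762), again without overlap. TCC was at 14.3% in WT and 14.4% in KO (exact permutation test, p = 0.971). These tests take the 4 libraries of a line as independent, although input and IP were parts of the same RNA. With input and IP of a replicate number averaged, 2 values against 2, the exact permutation p was 0.333 for GCC and for CCC, the smallest that this design allows.

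The listed counts of GCC-1 and GCC-2 were not in the same balance in the 4 groups. GCC-1 made up 65.9% and 66.5% of the GCC-1 and GCC-2 counts in WT input, 75.7% and 77.9% in WT IP, 55.9% and 56.1% in KO input and 69.7% and 72.3% in KO IP. The 95% Wilson intervals, which cover counting error only, reached 68.2% at most in WT input and began at 72.5% in WT IP, and in KO they reached 57.4% in input and began at 66.1% in IP. This balance needs no scaling between libraries, and it was looked at after the values were seen, so no test is given. The peaks ended at 59 or 60 on GCC-1 and at 54 on GCC-2, so the counts come from stretches of unlike length. A shift of cDNA positions between input and IP could thus move the balance, which was not tested.

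**Figure D3:**
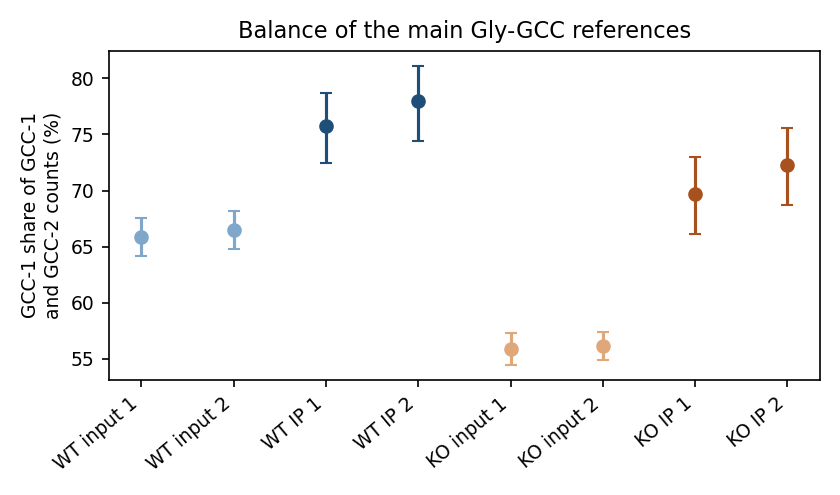
Share of GCC-1 in the summed GCC-1 and GCC-2 counts (vertical axis, percent, not starting at 0) in each of the 8 libraries, with 95% Wilson intervals for counting error. The 4 groups do not overlap in their points, with KO input lowest at 55.9% and 56.1% and WT IP highest at 77.9%.

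CCC-2 gained on CCC-1 in the IPs in the same way. The ratio of CCC-2 to CCC-1 counts was 2.57 and 3.37 in WT input and 3.86 and 7.67 in WT IP, and 3.16 and 3.94 in KO input and 7.14 and 10.7 in KO IP. CCC-1 had only 24 to 59 counts in the IP libraries, so these ratios are loose there, and in WT the ranges nearly meet. The peaks ended between 57 and 62 on CCC-2 and between 52 and 54 on CCC-1, so these counts too come from unlike stretches. CCC-1 and GCC-2, which differ at 3 bases, were the references with the steepest fall in both lines, chosen here after their values were seen. Their peaks ended earlier than those of GCC-1 and CCC-2, and whether this bears on the fall was not tested.

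The extent of the peaks differed between isoacceptors more than between groups. The peaks on GCC-1 ran from position 2 to 59 or 60 and those on GCC-2 from position 2 or 3 to 54. On CCC-1 they spanned positions 2 to 54 in all inputs, 4 to 54 in the KO IPs and 6 to 52 in the WT IPs. On CCC-2 they began at 2 and ended between 57 and 62. The TCC peaks were short, from position 2 to between 15 and 19. In the WT IPs they ended earlier than in the WT inputs, at 17 against 19 on TCC-1 and TCC-3 and at 15 against 18 on TCC-2. In KO the peaks on TCC-1 and TCC-3 ended at 19 in inputs and IPs alike, and those on TCC-2 at 19 in the inputs and at 15 and 18 in the IPs. Of the peaks, 21 of 22 on GCC and 16 of 16 on CCC spanned the anticodon, and 0 of 24 on TCC did. The listed TCC peaks thus stop before the wobble base. Per the study, the same pipeline placed crosslink sites by where reverse transcription stopped. A peak of such sites marks where cDNAs ended and not their whole length. Its extent therefore does not show whether the counted molecules hold the anticodon. Beyond position 20 the TCC references are identical to each other, so these listed ends need not show where TCC cDNAs stopped.

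**Figure D4:**
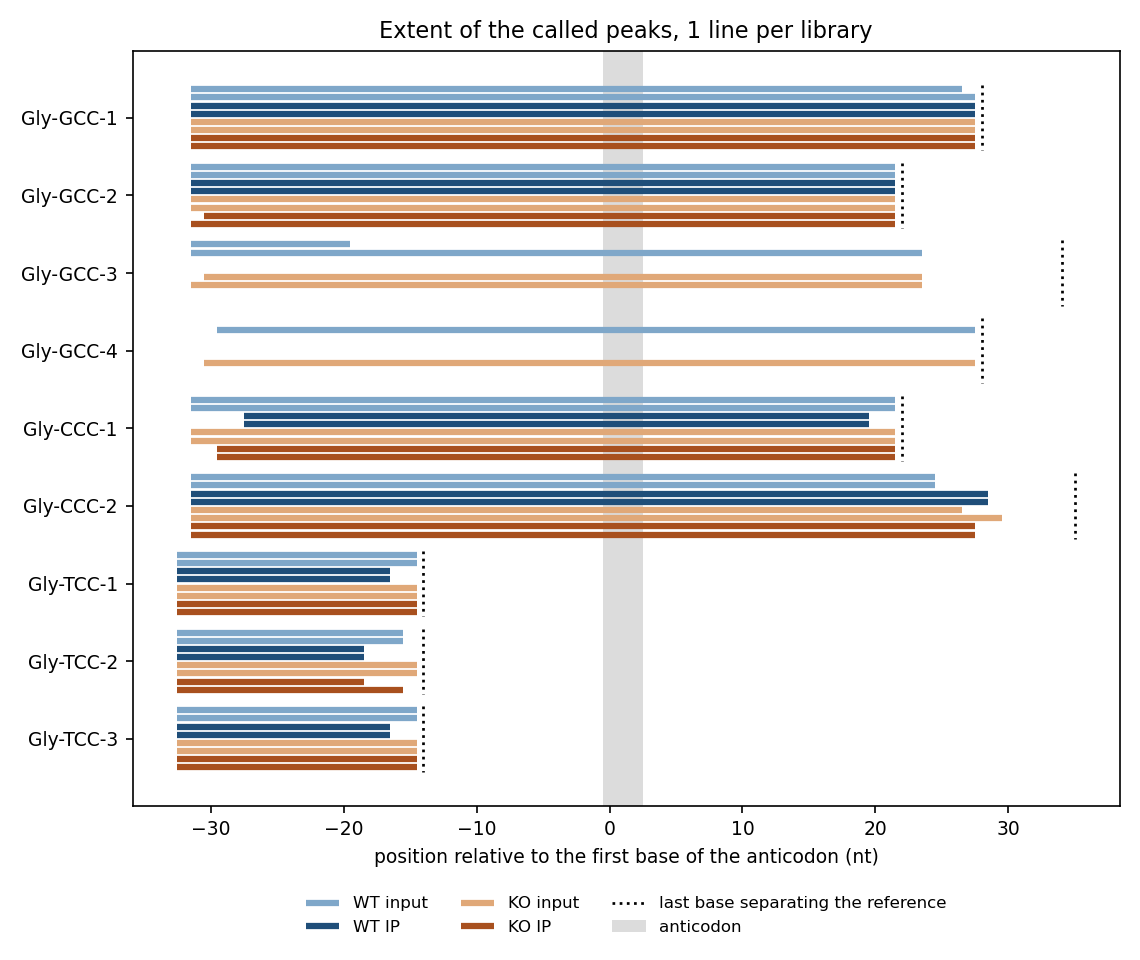
Extent of every called glycine peak (horizontal axis, nt from the first base of the anticodon, 5′ to the left), 1 line per library in the order of the legend's groups, with the anticodon shaded. Dotted lines mark the last base that still separates a reference from all other glycine references of its length; all 62 peaks end to the left of it.

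Where peaks ended was set beside the last base that still separates a reference from all other glycine references of its length, the earliest of its last differences from them. That base is position 55 for GCC-2 and CCC-1, which it separates from each other, position 61 for GCC-1 and GCC-4, and position 20 for the 3 TCC references. All 62 peaks ended before it, and 37 ended exactly 1 base before it, among them 8 of 8 on GCC-2, 7 of 8 on GCC-1, 6 of 8 on CCC-1 and 6 of 8 each on TCC-1 and TCC-3. A cDNA that starts beyond this base reads the same sequence in at least 1 other reference. For CCC-2, which has no near relative here, peaks ended 6 to 11 bases before its last separating base. No listed glycine peak reached the last separating base of its reference. Counts from beyond it are thus in neither the values per reference nor the sums per anticodon. How reads shared between references were assigned is not stated in the sources used here, so both kinds of value are uncertain in this respect. The part of such reads in the listed counts was not tested. CCC-1 and GCC-2 have the same sequence beyond position 55 although their anticodons differ, and whether reads passed between them was not tested.

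Other anticodons were ranked by how like the glycine pattern over the 8 libraries was, by the root mean square difference of centred log2 CPM over 36 anticodons. The most like tRNA-Gly-GCC were Lys-CTT (0.163), Glu-CTC (0.167) and Gly-TCC (0.187). For tRNA-Gly-TCC they were Glu-CTC (0.141), Gly-GCC (0.187) and Lys-CTT (0.206), and for tRNA-Gly-CCC they were Gly-TCC (0.224), Gly-GCC (0.271) and Lys-CTT (0.283). Leu-CAA was the farthest from all 3, at 1.76 from GCC, 1.92 from CCC and 1.80 from TCC.

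tRNA-Gly-CCC belongs to the 16 cytosolic anticodons with a C at the wobble base, the base at which f5C is known. In WT IP against input 1 of the 14 tested rose, Leu-CAA, and 5 fell, with Gly-CCC among them, beside 25.9% of all rows called in each direction, and in KO 0 of 15 rose and 8 fell, beside 24.9% of all rows called higher and 31.6% lower. For the interaction 5 of 14 were higher in WT and 0 lower, and Gly-CCC was not among the 5. The median was 0.32, beside 0.19 over all 138 rows, of which 21.7% were called higher. The study itself reports f5C in tRNA-Gly-CCC, with a modest decrease in KO by mass spectrometry. By chemical sequencing it reports low rates of ALKBH1-dependent change in the anticodon. Whether IP counts can show f5C at such levels was not tested here. Among the tRNAs that TRDMT1 methylates, Asp-GTC and Gly-GCC both fell in WT IP, with log2 fold changes of −1.16 and −1.46, and Val-AAC had no peak in every library there. In KO 2 of 3 fell, and 0 of 2 passed for the interaction.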

How the data were processed

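ARP sequencing libraries of WT and ALKBH1 KO HEK-293 cells, input and IP, were analysed. Per the study's methods, the authors removed PCR duplicates with unique molecular identifiers, mapped reads with STAR to tRNA and rRNA and the rest to GRCh38, and called peaks with Paraclu in each library at default parameters. The deposited values are cDNA counts per peak, without normalization, and per the labels the build is GRCh38. The tRNA reference set used for mapping is not given in the sources used here. The spike-in was not analysed here.

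Same-strand peaks sharing 1 nt or more, in any library, were joined, which gave 1373 regions. CPM used the summed peak counts of both lists of a library (48380 to 285539). Sums over peaks move with how much was called: GCC peaks covered 123 and 224 nt in the WT inputs, 166 and 225 nt in the KO inputs and 111 or 112 nt in each IP, the rare references included. Rows with a peak in every compared library entered edgeR 4.0.16 under R 4.3.3 (quasi-likelihood test, TMM factors, two-sided, Benjamini-Hochberg adjusted p under 0.05 over all rows), once with merged regions and once with tRNA peaks summed per anticodon, in 5 comparisons. The SE is the log2 fold change over the square root of F, and intervals use the fit's t quantile. The fits were tested on simulated data with changes in random directions, which does not test the choice of scaling. Shares used exact permutation tests (scipy 1.17.1). All glycine references and anticodons were named, with Leu-CAA, mt-tRNA-Met, nuclear glycine loci and the 3 most like anticodons. Members and lists were chosen with earlier results of these data known. Alternatives covered RLE factors, peak totals, DESeq2 1.42.0, uncalled regions as 0 or 10, a mean count of at least 50, a replicate block, all groups in 1 fit, tRNA rows alone, a score above 100 for shares, and each library left out. Input and IP of a replicate number as 1 sample was added for shares after seeing the data. Gene sequences were read from GRCh38 at RefSeq coordinates.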

Additional observations from a re-analysis of the deposited data

Results flagged for a closer look

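In 3 reference RNAs the change from input to IP differed between WT and KO by the interaction term of the edgeR fit. The mitochondrial glycine tRNA, which is encoded in mitochondrial DNA and is no member of the group described, fell in both lines, with a log2 fold change of −2.09 in WT (SE 0.25) and −2.86 in KO (SE 0.19), with an interaction of 1.15 (SE 0.27, edgeR adjusted p = 0.0160). That call held in 7 of 15 alternatives (0.61 to 1.20), and the region was also lower in WT input than in KO input (−1.26, SE 0.09, edgeR adjusted p = 0.00977). The interaction was 4.10 for the mitochondrial tRNA-Met region and 4.32 for tRNA-Leu-CAA (edgeR adjusted p = 1.72e-05 for each), past the threshold in all 15 alternatives.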

How the results depend on the processing

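The fall of all 3 isoacceptors in the IP kept its direction and its call under all 13 alternatives in each line, between −1.04 and −1.58 for GCC in WT and between −0.75 and −1.33 in KO. The comparisons between the lines changed their sign or their call more often. The cause was not tested.

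Interaction values that changed sign, in the order GCC, CCC, TCC: −0.54, −0.26 and −0.35 with peak totals, −0.41, −0.13 and −0.23 with a mean count of at least 50, −0.43, −0.15 and −0.23 with tRNA rows alone, −0.49, −0.21 and −0.32 with uncalled regions at 0, −0.40, −0.11 and −0.19 with them at 10. With RLE factors GCC was at −0.21 and TCC at −0.035, and with DESeq2 at −0.21 and −0.029. CCC-2 changed to −0.29 with peak totals, −0.29 with uncalled at 0, −0.13 with the mean count minimum, −0.085 with RLE and −0.087 with DESeq2. The call for GCC was made in 3 of 16 alternatives, so 1 isoacceptor passed with peak totals, the mean count minimum and tRNA rows alone. Of the references, 2 passed with peak totals and 1 each with RLE, DESeq2, uncalled at 0 and the mean count minimum.

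For WT IP against KO IP, GCC changed to −0.13 and TCC to −0.20 with peak totals, to −0.069 and −0.12 with tRNA rows alone, TCC to −0.034 with uncalled at 10, and CCC to 0.067 with the mean count minimum. GCC-1 went to −0.016 and TCC-2 to −0.14 with peak totals, and TCC-2 to −0.020 with uncalled at 10. The calls were 1 isoacceptor and 1 reference with the mean count minimum and 1 reference with peak totals.

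For the inputs, the isoacceptor calls were 2 with RLE and with the mean count minimum and 0 with uncalled at 10 and with tRNA rows alone, and the reference calls 1 with DESeq2. CCC changed to 0.071 with the mean count minimum, and TCC to −0.088 in 1 fit of all groups and to −0.045 with tRNA rows alone. In 1 fit of all groups CCC-1 was at −0.14, GCC-2 at −0.15 and TCC-3 at −0.099, and with uncalled at 10 CCC-1 was at −0.018 and GCC-2 at −0.033. Among peaks with a score above 100, the TCC share of glycine differed by −11.8 points between IP and input and by 2.25 between WT and KO. TCC peaks had at most 103 counts in the IPs and at least 132 in the inputs. That cutoff thus removed TCC peaks from the IPs and none from the inputs, so these values follow from the filter.

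With 1 library left out the values that changed sign spanned, as lowest and highest, for the interaction −0.14 to 0.13 (GCC), −0.015 to 0.32 (TCC), −0.20 to 0.96 (CCC-1), −0.27 to 0.18 (CCC-2), −0.68 to 0.062 (TCC-2) and −0.59 to 0.015 (TCC-3). For WT IP against KO IP they spanned −0.089 to 0.34 (TCC), −0.035 to 0.86 (CCC-1), −0.076 to 0.55 (TCC-1) and −0.14 to 0.36 (TCC-2), and for the inputs −0.22 to 0.033 (CCC), −0.21 to 0.30 (CCC-1) and −0.075 to 0.086 (GCC-2). The calls were 0 to 1 isoacceptors and 0 to 1 references in the inputs, and 0 to 1 references for the interaction, the 1 being GCC-1 without WT IP replicate 1. The glycine share of cytosolic tRNA, WT minus KO, spanned −2.95 to 0.753 points, and the TCC share of glycine −1.08 to 0.534 for WT minus KO and −0.508 to 1.11 for IP minus input. A lone sample is assumed to vary like the other group.

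Per the study's methods, input and IP were parts of the same probe-treated RNA, so same-numbered libraries of a line may be pairs, but no source says that the numbers match and each line has only 2. No source ties the numbers between the lines. The replicate differences correlated at 0.495 between WT input and IP, 0.243 in KO, 0.183 between inputs and 0.308 between IPs. A replicate block left 3 isoacceptors and 7 references lower in each IP, called 1 reference between the IPs (GCC-1, 0.24, edgeR adjusted p = 0.0253) and added GCC-3 in the inputs (1.81). It moved the calls in the inputs from 95 to 182 of the rows with anticodon sums. The absence of listed peaks, with a lowest listed count of 10, limits what can be said of GCC-3 and GCC-4 in the IPs. Taking input and IP of a number as 1 sample, an alternative chosen after seeing the data, gives a design too small to pass the threshold.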

Other observations

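Beside the mature tRNA references, 8 nuclear glycine tRNA loci had a peak in the lists of genome-mapped reads, which hold what did not map to the tRNA references. Their counts were low, at most 54 in a library for TRG-TCC1-1 and 52 for TRG-TCC3-1, both in KO input replicate 2, the library with the largest peak total. TRG-TCC3-1 had a peak in 5 of 8 libraries, with 21 and 34 counts in WT input, 11 and 52 in KO input and 10 in KO IP replicate 1. The peaks of TRG-TCC1-1 (4724063 to 4724092 on chromosome 19) and TRG-TCC3-1 (8221538 to 8221587 on chromosome 17) begin before the first base of the mature sequence, at 4724070 and 8221548. On the minus strand, those of TRG-GCC2-1, TRG-GCC2-3 and TRG-CCC2-2 reach 161523927, 27902984 and 636813. They too begin before the first mature base, at 161523917, 27902978 and 636806. The peak of TRG-CCC1-1 lay within the gene, and TRG-CCC5-1 and TRG-CCC3-1 were not compared. TRG-CCC5-1, a gene with no reference in the tRNA lists, had 10 counts in WT IP replicate 1, 22 and 41 in KO input and 12 in KO IP replicate 1. None had a peak in every IP library, and no test was made.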
